A study of Homo sapiens with 6 samples.

Results

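The lysosomal genes examined here were 33 genes for hydrolases, sphingolipid activator proteins, the proton pump and a regulator of the lysosome, chosen by gene symbol. All 33 were among the 26485 symbols in the count files, and all 33 were among the 13356 genes with at least 10 reads in at least 3 libraries. RNA-seq was performed in 6 libraries of A549, a human lung carcinoma cell line. Every library, controls included, came from cells that constitutively express dCas9-KRAB (a cleavage-dead Cas9 fused to a repressor domain) and rat Nkx2-1, both delivered by lentivirus. Puromycin selected for dCas9-KRAB and GFP sorting for Nkx2-1, so NKX2-1 was supplied from a PGK-driven vector and not from the cells' own gene. Cells for 3 libraries received sgRNA #2, directed at the first intron of SFTPB (surfactant protein B), and cells for the other 3 received a non-targeted sgRNA (sgRNA control). The question was whether genes of the lysosome, to which the lamellar bodies that store surfactant are related, changed when SFTPB was silenced.

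Lysosomes degrade proteins, glycans, glycolipids and stored fat with hydrolases that work at acidic pH. A proton pump, the V-ATPase, acidifies the lumen, and small activator proteins, among them the saposins cut from PSAP, present lipids to the enzymes. SFTPB belongs to the same protein family as PSAP and matures in lamellar bodies, the lysosome-related organelles of alveolar type II cells. TFEB and its relatives, the MiT/TFE factors, activate many lysosomal genes through a promoter element that contains CACGTG.

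The results below refer to the sequence of the sgRNA, to a genomic stretch upstream of MAN2B1 and to promoters of members that hold CACGTG. For sgRNA #2 the first 20 bases are the guide and the capitals mark the PAM, and its only exact genomic match was at chr2:85668529-85668551 (GRCh38, minus strand).
sgRNA #2: gggatgggaggggaacacccAGG
In the MAN2B1 stretch (chr19:12667222-12667244, minus strand) the capitals mark the 9 PAM-proximal bases that match the guide and the last 3 bases are the NGG.
MAN2B1 upstream: cttttctctccGGAACACCCagg
The promoters are the 250 bases before the start of transcription from RefSeq (GRCh38.p14), written along the strand of the gene, with CACGTG in capitals. They lie at chr11:1763928-1764177 (CTSD, minus strand), chr17:80101331-80101580 (GAA, plus strand) and chr19:7522374-7522623 (MCOLN1, plus strand).
CTSD: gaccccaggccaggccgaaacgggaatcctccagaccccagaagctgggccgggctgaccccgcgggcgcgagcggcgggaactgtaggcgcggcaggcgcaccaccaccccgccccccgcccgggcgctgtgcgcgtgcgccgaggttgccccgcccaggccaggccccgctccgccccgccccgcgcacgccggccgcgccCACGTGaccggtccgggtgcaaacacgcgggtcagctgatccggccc
GAA: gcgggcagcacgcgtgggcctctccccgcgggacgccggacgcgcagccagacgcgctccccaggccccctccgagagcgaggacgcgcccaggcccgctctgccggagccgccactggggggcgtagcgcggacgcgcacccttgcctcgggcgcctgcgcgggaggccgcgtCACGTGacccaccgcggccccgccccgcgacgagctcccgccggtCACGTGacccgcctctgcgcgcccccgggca
MCOLN1: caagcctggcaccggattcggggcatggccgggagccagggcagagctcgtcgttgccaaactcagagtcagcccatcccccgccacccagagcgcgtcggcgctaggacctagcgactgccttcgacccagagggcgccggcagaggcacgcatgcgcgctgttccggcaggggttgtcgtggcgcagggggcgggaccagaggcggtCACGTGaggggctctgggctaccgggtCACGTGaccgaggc

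The libraries held between 6047554 and 7584611 reads on genes, and the floor of 3 counts, which covers counting error only, corresponded to 0.394 to 0.499 CPM, the count scaled to the normalized size of its library. SFTPB itself had 2683, 2877 and 3155 reads with the sgRNA control and 40, 42 and 49 with sgRNA #2, a log2 fold change of -5.96 (SE 0.101, edgeR quasi-likelihood test, Benjamini-Hochberg adjusted p = 5.55e-17). Among markers of other cell types, PTPRC, which defines leukocytes, was at 0 in every library. The summed level of 10 leukocyte markers was 66.7 to 75.0 CPM with the sgRNA control and 71.2 to 71.3 CPM with sgRNA #2, nearly all of it CD68, a lysosomal membrane glycoprotein of macrophages, at 61.9 to 66.6 CPM against 65.1 to 68.2 CPM. The 7 fibroblast markers summed to 7.74 to 10.2 CPM against 6.15 to 10.0 CPM, and the 5 endothelial markers to 0.636 to 0.99 CPM against 0.333 to 0.6 CPM. Of the leukocyte, fibroblast and endothelial markers, 5, 2 and 1 were at 0 in all libraries. None of the 10 A549 markers passed the adjusted p of 0.05 in edgeR, but AKR1B10, ALDH3A1 and KRT8 passed with the replicate block. ALDH3A1 had a log2 fold change of -0.33 (edgeR adjusted p = 0.0657, 6.36e-12 with the block and 9.99e-05 without a count filter, and 0.0401 in DESeq2). The study describes its RNA-seq triplicates as biological replicates, and the labels give no batch.

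Of the 33 lysosomal genes, MAN2B1 and CTSD fell, CTSL rose, and the other 30 did not pass the adjusted p of 0.05. MAN2B1 (lysosomal alpha-mannosidase, which trims mannose from glycoproteins) was 2.57-fold lower with sgRNA #2 and was the only member past both cut-offs, a log2 fold change of at least 1 in size and an adjusted p under 0.05. CTSD (cathepsin D, an aspartic protease) was 1.30-fold lower, and CTSL (cathepsin L, a cysteine protease) was 1.58-fold higher. In bulk RNA, a change in the share of cells that express a gene and a change in RNA per cell cannot be told apart. Past both cut-offs stood 1 member (3.03%), beside 0.719% of all genes tested. Past the adjusted p alone stood 3 members (9.09%), beside 2.69% of all genes. By direction, 2 members (6.06%) were lower beside 2.22% of all genes, and 1 (3.03%) was higher beside 0.464%. These shares rest on 1 to 3 genes, and the members were chosen with earlier results of these data known. The median log2 fold change of the members was -0.04, and that of all tested genes was 0.0035. The median size of the change, without its sign, was 0.0881 for the members and 0.0916 for all tested genes. Estimates were below 0 for 18 members and above 0 for 15. The reads on the members together made up 0.678%, 0.690% and 0.701% of all reads with the sgRNA control and 0.674%, 0.655% and 0.704% with sgRNA #2, so the summed share overlapped between the groups.

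**Figure D1:**
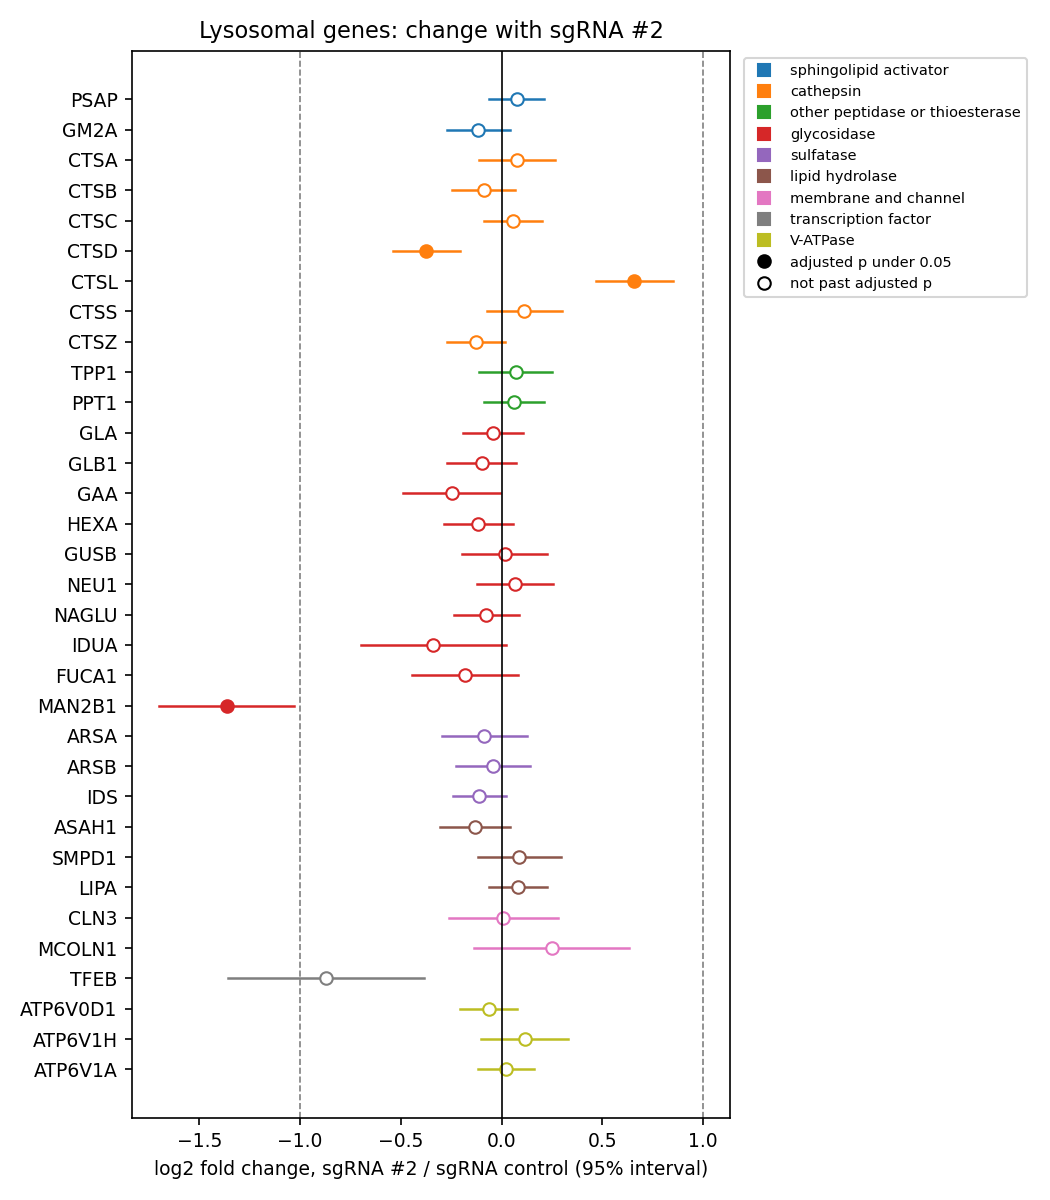
Log2 fold change (x axis, sgRNA #2 over sgRNA control) of the 33 lysosomal genes (y axis) from edgeR, with bars for the 95% interval and colours for the role of each gene. Filled points passed the adjusted p of 0.05 and dashed lines mark a 2-fold change. MAN2B1 lies left of the dashed line at -1.36, CTSL at 0.66 and CTSD at -0.37 are the other filled points, and most others lie near 0.

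The interval of the change bounded most of the 30 genes that did not pass. The 95% interval lay within a 1.5-fold change in either direction for 27 of them, and 28 of all 33 members met that bound. The standard errors of the log2 fold changes ran from 0.0624 to 0.231, the highest being that of TFEB, the gene with the fewest reads per kilobase. Without overlap between the 3 libraries of each group were 8 members (24.2%), beside 15.6% of all tested genes. Of these, GM2A, CTSD, MAN2B1, IDS, TFEB and ATP6V0D1 were lower and CTSL and MCOLN1 were higher with sgRNA #2.

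**Figure D2:**
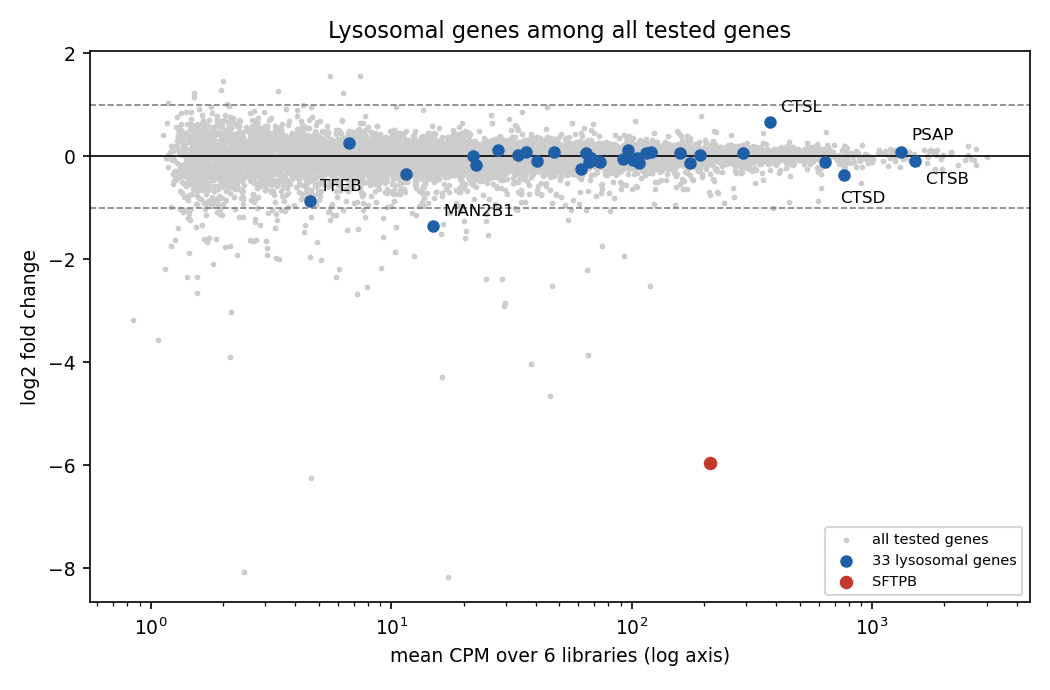
Log2 fold change (y axis, sgRNA #2 over sgRNA control) against mean CPM over the 6 libraries (x axis, log scale) for all 13356 tested genes (grey), the 33 lysosomal genes (blue) and SFTPB (red), with dashed lines at a 2-fold change. Labels mark the 3 lysosomal genes past the adjusted p (MAN2B1, CTSL and CTSD), TFEB at -0.87, and PSAP and CTSB near the upper end of the levels.

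Levels were compared between genes as CPM per kilobase of the canonical transcript, in the sgRNA control libraries. PSAP had the highest mean of the members, at 468 ± 21.3 (SD, n = 3), although the SD ranges of PSAP and CTSD overlapped. CTSD at 420 ± 37.3 and CTSB at 417 ± 26.0 followed and did not differ from each other beyond their spread. CTSL stood at 176 ± 15.8 and CTSC at 153 ± 12.8, within the spread of each other. MAN2B1, with 6.74 ± 0.955, was the 30th of the 33, near IDUA at 5.90 ± 1.27. MCOLN1 at 2.94 ± 0.232 and TFEB at 2.55 ± 0.378 were the lowest. With sgRNA #2 the mean of CTSL was 278 and that of MAN2B1 was 2.61 on this scale.

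PSAP is the precursor of the saposins, which help break down sphingolipids, and shares the saposin fold with SFTPB. Its level was 1233, 1349 and 1278 CPM with the sgRNA control and 1304, 1376 and 1386 CPM with sgRNA #2. The groups overlapped, since the highest control library lay above the lowest sgRNA #2 library. The log2 fold change was 0.08 (SE 0.0644, 95% interval -0.06 to 0.21, edgeR adjusted p = 0.762). PSAP had 7754 to 9740 reads per library, and the interval reached no lower than -0.06. GM2A, the activator protein for the breakdown of GM2 ganglioside, had 69.0, 72.3 and 66.4 CPM with the sgRNA control. With sgRNA #2 it had 64.2, 64.9 and 62.5 CPM, all below the controls, but the log2 fold change of -0.12 (SE 0.0740) did not pass the test (edgeR adjusted p = 0.636). The PSAP relative PSAPL1 had 3, 4 and 3 reads with the sgRNA control and 1, 1 and 0 with sgRNA #2, at or near the floor of 3 counts, and was not tested. Of 11 genes with saposin domains or related to such genes, 7 were tested. The targeted SFTPB was the 1 past the adjusted p, beside 2.69% of all genes.

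The 7 cathepsins, proteases of the lysosome, did not move together, with 1 lower, 1 higher and 5 not past the adjusted p. CTSL (chr9:87724051-87731469, plus strand, overlapping no other annotated gene) had 301, 262 and 311 CPM with the sgRNA control and 456, 397 and 526 CPM with sgRNA #2. Every sgRNA #2 library was above every control. The means were 291 ± 26.1 and 460 ± 64.5 CPM (SD, n = 3), a log2 fold change of 0.66 (SE 0.0902, edgeR adjusted p = 2.00e-04). It stayed past the threshold without any single library, with an adjusted p of at most 0.00139 and a log2 fold change of 0.55 to 0.75. The annotation holds 6 pseudogene copies of CTSL, between which and CTSL the counting could have divided reads.

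CTSD (chr11:1752752-1764573, minus strand) had 774, 902 and 912 CPM with the sgRNA control and 636, 625 and 737 CPM with sgRNA #2. The highest sgRNA #2 library lay just under the lowest control. The means were 863 ± 76.7 and 666 ± 61.7 CPM, a log2 fold change of -0.37 (SE 0.0788, edgeR adjusted p = 0.0118). The call was lost in 4 of the 6 fits that left out 1 library, with adjusted p = 0.0630 without control replicate 2, 0.0527 without control replicate 3, 0.0942 without sgRNA #2 replicate 1 and 0.0786 without sgRNA #2 replicate 2. The log2 fold change stayed between -0.45 and -0.33. CTSD overlaps 2 annotated genes on its own strand and PRADX on the other, and the strand setting of the counting is not given in the sources used here.

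CTSB, a cysteine protease and the member with the most CPM, had 1667, 1504 and 1494 CPM with the sgRNA control and 1557, 1324 and 1507 CPM with sgRNA #2. These ranges overlapped and the log2 fold change was -0.09 (SE 0.0739, edgeR adjusted p = 0.757). The log2 fold changes of CTSA, CTSC, CTSS and CTSZ, which include a carboxypeptidase and the activator of granule proteases, lay between -0.13 (CTSZ) and 0.11 (CTSS). Their adjusted p-values in edgeR were 0.852, 0.862, 0.731 and 0.526, in that order. The cathepsins together took 0.332%, 0.328% and 0.334% of the reads with the sgRNA control and 0.325%, 0.299% and 0.338% with sgRNA #2, a share that overlapped between the groups. CTSH, a cathepsin outside the list that processes surfactant protein B, had 34, 32 and 35 reads against 26, 21 and 30, and its log2 fold change was -0.30 (edgeR adjusted p = 0.737).

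**Figure D3:**
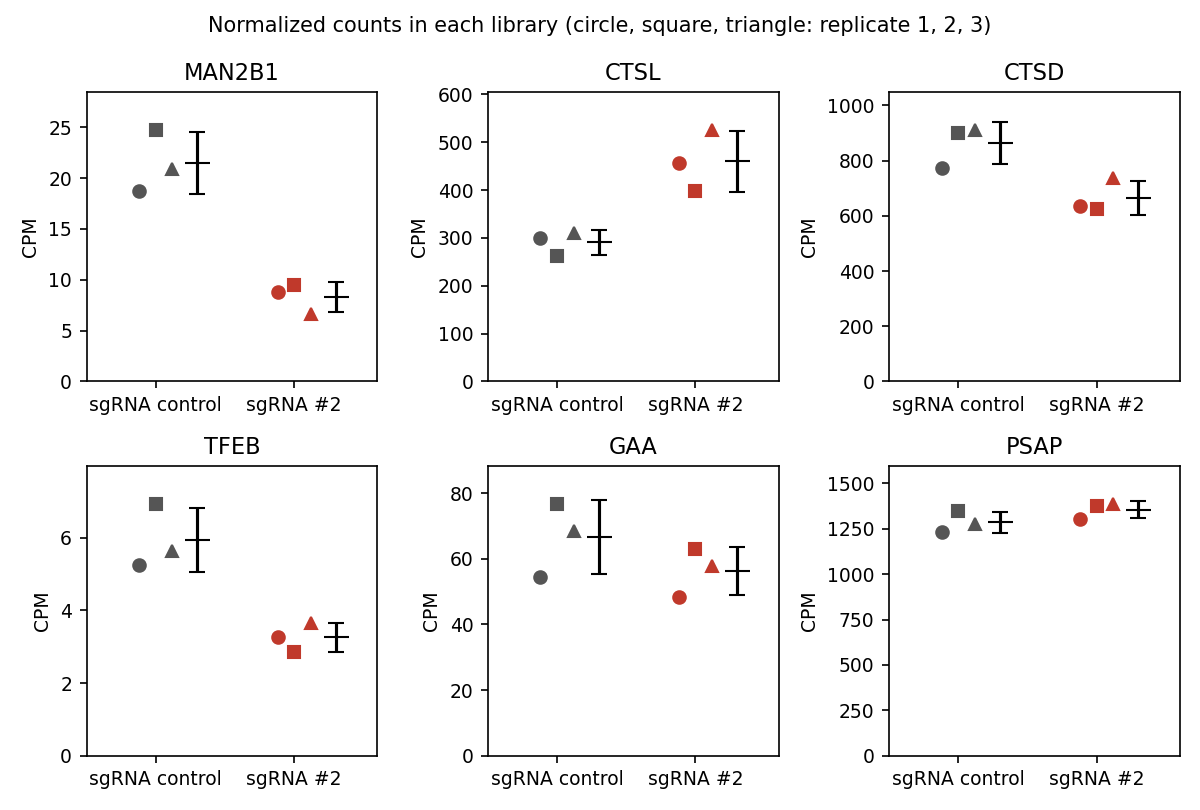
CPM (y axis, from 0) of MAN2B1, CTSL, CTSD, TFEB, GAA and PSAP in each library of the sgRNA control (grey) and sgRNA #2 (red), with the mean and SD of the 3 libraries beside the points. The groups are apart in MAN2B1, CTSL, CTSD and TFEB and overlap in GAA and PSAP.

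Among the 10 glycosidases, which remove sugars from glycoproteins and glycolipids, MAN2B1 fell and the other 9 did not pass. MAN2B1 (chr19:12646511-12666742, minus strand) had 118, 175 and 159 reads with the sgRNA control and 62, 63 and 40 with sgRNA #2. Scaled to depth, these were 18.8, 24.8 and 20.9 CPM against 8.80, 9.44 and 6.65 CPM, with all sgRNA #2 libraries well under the controls. The log2 fold change was -1.36 (SE 0.159, 95% interval -1.70 to -1.03, edgeR adjusted p = 3.05e-05). MAN2B1 ranked 59th by p among the 13356 tested genes, and without any single library its adjusted p was at most 3.21e-04. It overlaps 2 unnamed annotated genes on its own strand, and how reads shared with them were counted is not given in the sources used here.

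GAA (acid alpha-glucosidase, which degrades glycogen, chr17:80101533-80119881, plus strand) had 54.5, 76.7 and 68.5 CPM with the sgRNA control and 48.4, 62.8 and 57.7 CPM with sgRNA #2. The groups overlapped, but within each replicate number the sgRNA #2 library was the lower, as was also so for HEXA, CTSZ and ASAH1. For PSAP, CTSS and LIPA, whose groups also overlapped, it was the higher within each replicate number. How many of all tested genes had either pattern was not counted. The log2 fold change of GAA was -0.25 (SE 0.114, edgeR adjusted p = 0.421). With the replicate number as a block it was -0.24 with an adjusted p of 0.00506. IDUA, which acts on the glycosaminoglycans dermatan and heparan sulfate, had 10.2, 15.7 and 12.6 CPM against 10.4, 10.9 and 9.14 CPM, and its log2 fold change was -0.34 (SE 0.171, edgeR adjusted p = 0.492). GLA and GLB1 (galactosidases), HEXA (a hexosaminidase subunit), NAGLU (a heparan sulfate glucosaminidase) and FUCA1 (a fucosidase) had log2 fold changes of -0.04, -0.10, -0.12, -0.08 and -0.18. Those of NEU1, a sialidase, and GUSB, a glucuronidase with 18 pseudogene copies, were 0.07 and 0.01. In all, 8 of the 10 glycosidase estimates were below 0, where the median over all tested genes was 0.0035. Whether this count of signs departs from that of other genes was not tested. The smallest adjusted p among the 9 was that of GAA.

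None of the 3 sulfatases, the 3 lipid hydrolases or the 2 other enzymes of protein breakdown passed the adjusted p. IDS (iduronate sulfatase, which has a pseudogene, IDSP1) had 686, 664 and 636 CPM with the sgRNA control and 629, 590 and 619 CPM with sgRNA #2, groups that did not overlap, with a log2 fold change of -0.11 (SE 0.0624, edgeR adjusted p = 0.557). ARSA and ARSB, the other sulfatases, were at -0.09 and -0.04. SMPD1 (acid sphingomyelinase) had 31.3, 36.2 and 38.6 CPM against 37.8, 37.9 and 37.4 CPM and a log2 fold change of 0.09 (SE 0.0980, edgeR adjusted p = 0.840). ASAH1 (acid ceramidase) was at -0.13 and LIPA (acid lipase, which hydrolyses cholesteryl esters) at 0.08. TPP1, a tripeptidyl peptidase, and PPT1, which removes palmitate from proteins, were at 0.07 and 0.06.

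The proton pump was represented by ATP6V1A, the catalytic subunit, ATP6V1H, a regulatory subunit, and ATP6V0D1, which links the membrane sector to the stalk. ATP6V0D1 had 93.3, 91.7 and 97.1 CPM with the sgRNA control and 88.3, 90.1 and 91.6 CPM with sgRNA #2, a log2 fold change of -0.06 (SE 0.0668, edgeR adjusted p = 0.820), although the groups did not overlap. ATP6V1H was at 0.11 (adjusted p = 0.778) and ATP6V1A at 0.02 (adjusted p = 0.947) in the same test. MCOLN1, the calcium channel of the lysosomal membrane, had 5.56, 6.36 and 6.43 CPM against 7.38, 7.35 and 7.15 CPM. Every sgRNA #2 library was above every control, but on 35 to 52 reads per library the log2 fold change of 0.25 (SE 0.182, 95% interval -0.14 to 0.63) did not pass (edgeR adjusted p = 0.707). CLN3, a lysosomal membrane protein mutated in a childhood neuronal storage disease, was at 0.01 (SE 0.129, adjusted p = 0.992).

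TFEB (chr6:41683978-41736259, minus strand), the transcription factor among the members, had 33, 49 and 43 reads with the sgRNA control and 23, 19 and 22 with sgRNA #2. As CPM these were 5.25, 6.93 and 5.64 against 3.27, 2.85 and 3.66, and the groups did not overlap. The log2 fold change was -0.87 (SE 0.231, 95% interval -1.36 to -0.38), and the edgeR adjusted p of 0.0544 lay just outside the threshold. The call turned with the fit, since the adjusted p was 0.00312 with the replicate block, 0.0165 without a count filter, 0.0427 with 10 counts required in every library and 0.230 in DESeq2. Without 1 library it ran from 0.0616 to 0.242. An unnamed antisense gene overlaps TFEB. The related factors MITF and TFE3 had log2 fold changes of -0.08 (edgeR adjusted p = 0.826) and -0.12 (adjusted p = 0.555).

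**Figure D4:**
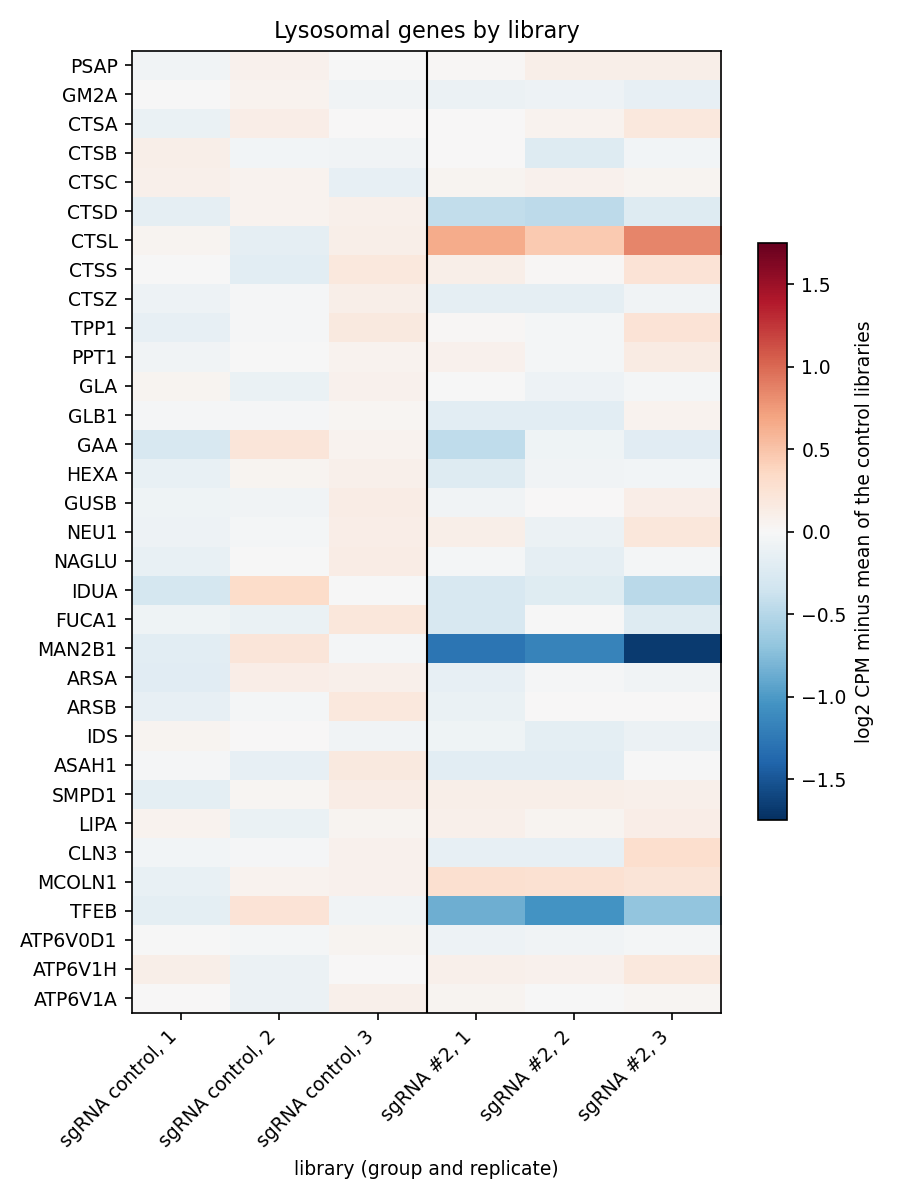
Log2 CPM minus the mean of the sgRNA control libraries (colour, blue lower and red higher) for the 33 lysosomal genes (y axis) in each of the 6 libraries (x axis). MAN2B1 and TFEB are blue and CTSL is red in all 3 sgRNA #2 libraries, and most other rows are pale in all 6 libraries.

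With the replicate number as a block, 5 members (15.2%) passed the adjusted p, beside 10.0% of all genes, with GAA and TFEB added to the lower ones. DESeq2 called 3 members (9.09%), beside 2.26% of all genes. At an unadjusted p under 0.05, 5 members (15.2%) passed in edgeR, beside 11.1% of all genes.

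Promoters were in the RefSeq table for 24 of the 33 members, and these windows ran from 250 bases before the start to 50 after it. A gene counted once if any of its promoters held the letters. CACGTG, which reads the same on both strands, was in 8 of the 24 (33.3%). It was in 2396 of the 27305 genes of the table (8.77%) and in 1237 of the 9918 tested genes found there (12.5%). The 8 were CTSA, CTSD, GAA, NEU1, ARSB, CLN3, MCOLN1 and ATP6V0D1. The longer TCACGTGA, which contains CACGTG, was in 5 of the 24 (20.8%), against 1.18% of all genes of the table and 2.20% of the tested genes found there. Among the promoters printed above, CACGTG began 47 bases before the start of CTSD, 76 and 31 before that of GAA, and 41 and 14 before that of MCOLN1. The changes with sgRNA #2 of the 8 members with CACGTG ran from -0.37 (CTSD) to 0.25 (MCOLN1) on the log2 scale, with a median of -0.02, and 1 of them passed the adjusted p. The 16 members without it in this window ran from -1.36 (MAN2B1) to 0.66 (CTSL), with a median of -0.07, and 2 passed. TFEB was also among these 16. A match describes the letters only, and binding of any factor was not measured.

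The genome around the annotated starts of the tested genes was searched for the PAM-proximal bases of sgRNA #2 followed by NGG, within 1000 bp. MAN2B1 had a match of 9 bases, printed above, 491 bp upstream of an annotated start. Matches of at least 9 bases were found for 1 of the 33 members and for 62 of the other 13040 genes searched (0.475%). At 8 bases, SMPD1 joined it with a match at chr11:6393890-6393912 (plus strand), 383 bp downstream of an annotated start. That start is an internal one, and the match lies within the body of SMPD1 (chr11:6390440-6394998). At this length, 2 of 33 members stood beside 196 of the other 13040. No member had 10 matching bases, beside 28 genes (0.215%). Whether dCas9-KRAB bound either site was not measured, and the part of such matches in the fall of MAN2B1 was not tested.

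LAMP3 was counted with the lamellar body genes below, where it was past both cut-offs (log2 fold change -1.86, edgeR adjusted p = 1.70e-04). The wider lysosomal and autophagy genes were taken in 6 lists without the members and without LAMP3. Of 174 tested, 4 were lower and 0 higher past the adjusted p in edgeR (2.3%), a share near the 2.69% of all tested genes, none was past both cut-offs, and the median log2 fold change was -0.02. With the replicate block 10 passed (5.75%), beside 10.0% of all genes. None of 34 other lysosomal hydrolases and none of 18 genes for MiT/TFE factors and their regulation passed in edgeR, where 3 and 1 had an unadjusted p under 0.05 and 3 and 0 passed with the block. Of 34 lysosomal membrane proteins, 1 was lower, NPC1, which exports cholesterol. NPC1 had 172, 179 and 152 CPM with the sgRNA control and 140, 135 and 128 CPM with sgRNA #2, a log2 fold change of -0.32 (SE 0.0726, edgeR adjusted p = 0.0203). The adjusted p was 0.0680 and 0.105 without control replicate 1 or 2 and 0.0712 and 0.0974 without sgRNA #2 replicate 2 or 3. The major membrane glycoproteins LAMP1 and LAMP2 had log2 fold changes of -0.02 (edgeR adjusted p = 0.941) and 0.00 (adjusted p = 0.999).

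Of 19 other V-ATPase subunits, 1 was lower, TCIRG1, a membrane subunit. It had 98.1, 126 and 102 CPM against 86.5, 91.7 and 77.0 CPM, and its log2 fold change was -0.36 (SE 0.0927, edgeR adjusted p = 0.0494). DESeq2 gave an adjusted p of 0.0527, and the adjusted p was 0.255 (log2 fold change -0.23) without control replicate 2 and 0.146, 0.0522 and 0.196 without sgRNA #2 replicate 1, 2 and 3. Of 39 genes for sorting to the lysosome, 1 was lower, AP1S1, a subunit of the AP-1 adaptor. Its level was 83.8, 90.2 and 90.3 CPM against 70.3, 68.1 and 68.0 CPM, and its log2 fold change was -0.36 (SE 0.0709, edgeR adjusted p = 0.00747). Of 31 autophagy genes, 1 was lower, SQSTM1 (p62), which delivers ubiquitinated cargo. SQSTM1 had 1068, 1031 and 1090 CPM against 781, 694 and 746 CPM, a log2 fold change of -0.52 (SE 0.0654, edgeR adjusted p = 7.24e-05).

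Of the 20 genes for lamellar bodies and surfactant processing, 14 were tested, and 2 fell and 1 rose, the targeted SFTPB among them, beside 2.69% of all genes past the adjusted p. With the replicate block 6 of the 14 passed, 4 lower (SFTPB and LAMP3 among them) and 2 higher, beside 10.0% of all genes. LAMP3, a membrane glycoprotein of lamellar bodies, had 89, 142 and 111 reads with the sgRNA control and 15, 36 and 37 with sgRNA #2, a log2 fold change of -1.86 (SE 0.251, edgeR adjusted p = 1.70e-04). With SFTPB, it was the gene of this list past both cut-offs. SFTPA1 (surfactant protein A) rose by 0.47 on the log2 scale (edgeR adjusted p = 8.96e-04). ABCA3, which pumps phospholipid into lamellar bodies, had 784, 997 and 1116 reads against 774, 808 and 760 and a log2 fold change of -0.21 (edgeR adjusted p = 0.242, and 0.00176 with the replicate block). NAPSA, an aspartic protease of the surfactant pathway, was at 0.01 (adjusted p = 0.984). The median of the 14 was -0.03.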

How the data were processed

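RNA was sequenced from 6 A549 libraries, 3 per group, and groups and replicate numbers came from the labels. For each gene symbol the authors deposited an untransformed count of reads. The submitters' notes name HTSeq, hg38, Bowtie2 2.3.3.1, Trim Galore, FastQC, SAMtools and Picard. The annotation and strand setting are not given in the sources used here. Summary entries that name no gene were left out, among them reads on no feature (19.7% to 21.1%) and ambiguous reads (2.61% to 2.75%).

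Tests covered genes that reached 10 counts in 3 or more libraries and used the quasi-likelihood method of edgeR 4.0.16 under R 4.3.3, with TMM scaling and Benjamini-Hochberg adjustment over all 13356 genes. The standard error is the size of the log2 fold change divided by the square root of F. An exact permutation test of 3 against 3 libraries cannot go below p = 0.10, so none was used. The test was run on simulated data first. P-values weigh the difference between the groups against the spread between these libraries. For each gene this spread was drawn towards a trend over all genes, with 13.0 prior degrees of freedom. Replicates of a group differed by more than counting noise (chi-square per degree of freedom 2.73 to 3.61).

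The labels number the replicates alike in both groups, and the deviations of same-numbered libraries from their group means correlated at 0.269, 0.287 and 0.291, so a fit with the replicate number as a block was also made. With the block or without a count filter the prior degrees of freedom were infinite, against 13.0 in the fit without either change, so those p-values rest on the trended dispersion alone. Other alternatives were DESeq2 1.42.0, RLE size factors, total counts only, 10 counts in every library, an unadjusted p, and leaving out each library.

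The members and lists were chosen with earlier results of these data known. Named were the members, SFTPB, LAMP3, list genes past both cut-offs, up to 6 per list past the adjusted p, and ABCA3, NAPSA, CTSH, PSAPL1, LAMP1, LAMP2, MITF, TFE3 and SQSTM1. Positions are from GENCODE 44, and sequence searches used Python 3.11.15.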

Additional observations from a re-analysis of the deposited data

How the results depend on the processing

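In 12 alternative fits, MAN2B1 was the member past both cut-offs each time. The count of members past the adjusted p was 3, and 5 with the replicate block or with an unadjusted p. It was 4 without a count filter and with 10 counts in every library, and 2 to 3 when 1 library was left out. The count of list genes past the adjusted p was 7, the targeted SFTPB, LAMP3 and SFTPA1 among them. It was 16 with the replicate block, 9 without a count filter and 5 to 7 when 1 library was left out. DESeq2, RLE size factors, total counts only and 10 counts in every library each gave 6. Over all genes, 359 of 13356 passed in the fit reported above, 1339 of 13356 with the replicate block and 583 of 19505 without a count filter. With 10 counts in every library 324 of 12562 passed. DESeq2, RLE size factors and total counts only gave 302, 357 and 349 of 13356, and leaving out 1 library gave 224 to 327. The values with the block that changed a call of a named gene stand beside those genes. Of 540 values of 45 named genes under the alternatives, 498 kept their direction and their side of the threshold, 16 kept the direction but were no longer past it, 5 were newly past it and 21, in 9 genes, changed sign. None of these 9 genes was past the threshold, and the cause was not tested. Their log2 fold changes without 1 library ran from -0.0149 to 0.0947 (CTSC), -0.0157 to 0.157 (TPP1), -0.0324 to 0.0851 (GUSB), -0.113 to 0.0559 (ARSB), -0.142 to 0.0878 (CLN3), -0.027 to 0.0694 (ATP6V1A), -0.0772 to 0.123 (NAPSA), -0.0552 to 0.0017 (LAMP1) and -0.0747 to 0.061 (LAMP2). With 10 counts in every library LAMP2 was at -0.0024. TCIRG1 also missed the threshold with RLE size factors (0.0519), total counts only (0.0588) and 10 counts in every library (0.0551). TFEB and MCOLN1 had 19 to 52 reads per library and CTSH 21 to 35, and PSAPL1 had too few to test.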
